A study of Mus musculus with 49 samples.

Results

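The microglia genes described here were Aif1, C1qa, C1qb, C1qc, Tmem119, Ctss, Csf1r, P2ry12 and Cx3cr1, which were 9 of the 52636 genes in the count table. They were taken by name as a measure of microglial RNA in fractions purified for medium spiny neurons (MSNs). Earlier results of these data were known when they were chosen. RNA was sequenced from D1-MSNs and D2-MSNs, the neurons of the striatum that carry the dopamine receptors Drd1 or Drd2, after whole cell sorting (whole cell-FACS), sorting of nuclei (nuclear-FACS) or precipitation of tagged ribosomes (RiboTag). The comparisons ask how much microglial RNA each purification carried, and whether it differed between the D1 and D2 fractions. Of the 47 libraries, 8 were whole cell D1, 6 whole cell D2, 6 nuclear D1, 5 nuclear D2, 6 each RiboTag male D1 and D2, and 5 each RiboTag female D1 and D2. Each library came from 1 mouse.

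All mice were C57BL/6J by the labels, were bred on that background and received no treatment that the labels name; an age was not given in the sources used here. For nuclear-FACS, males carried Drd1-cre or Drd2-cre with the reporter Thy1-loxPSTOPloxP-EGFP-F. For whole cell-FACS, males were heterozygous for a fluorophore of the cytoplasm driven by the Drd1 or the Drd2 promoter. For RiboTag, males and females carried Drd1-cre or Drd2-cre with Rpl22-loxPexon4loxP-exon4-HA, which adds an HA tag to a ribosomal protein. Sorting and precipitation therefore selected by the activity of the Drd1 or Drd2 promoter, in nuclear-FACS together with the Thy1 reporter. No fraction was selected for or against a microglial marker. Whole cell and RiboTag tissue was fresh and nuclear tissue was frozen, so in the contrasts with nuclei tissue state and method cannot be told apart.

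Microglia are the resident macrophages of the brain, survey the tissue with motile processes and clear debris and synapses. Csf1r, the receptor for CSF1 and IL-34, is needed for their survival, Cx3cr1 is the receptor for the neuronal chemokine CX3CL1, and P2ry12 is a receptor for ADP that guides their processes toward injury. C1qa, C1qb and C1qc encode the 3 chains of the complement protein C1q, Ctss encodes the lysosomal protease cathepsin S, Aif1 encodes the actin-binding protein IBA1, and Tmem119 encodes a membrane protein used as a microglial marker.

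Depth ranged from 3701255 to 68777008 counts per library, and 3 counts, the limit that a count of 0 allows, corresponded to between 0.0436 and 0.811 counts per 1000000 counts (CPM), for counting error only. The 10 most abundant genes took 84.9% to 88.3% of counts in RiboTag libraries, 20.3% to 66.9% in nuclear D1, 5.23% to 13.9% in nuclear D2 and 2.70% to 54.5% in whole cell libraries, so CPM was compressed to different degrees. Drd1 was higher in every D1 than in every D2 library of the same method, and Drd2 was lower. In whole cell libraries Drd1 was 80.4 to 397 CPM in D1 and 0.293 to 13.7 CPM in D2. In nuclear libraries it was 10.6 to 27.9 CPM in D1 and 3.33 to 8.00 CPM in D2. Nuclear Drd2 was 49.2 to 197 CPM in D1 and 261 to 495 CPM in D2, above Drd1 in both. Penk, also among the D1 and D2 cell type genes listed below, was higher in every D2 library in whole cells and RiboTag. In nuclei Penk ran the other way, at 88.5 to 341 CPM in D1 and 12.7 to 79.5 CPM in D2. Nuclear D1 and D2 libraries overlapped in Adora2a, another of these genes. The cause was not tested.

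Counting covered whole gene bodies without regard to strand, and a read over several genes was counted for each. The bodies of Aif1 (chr17:35170991-35176068), C1qa (chr4:136895917-136898803), C1qb (chr4:136880129-136886187), C1qc (chr4:136889804-136893065) and Tmem119 (chr5:113793729-113800516) overlapped no other annotated gene in GRCm38. The other 4 shared reads with other genes. Ctss (chr3:95526786-95556403) contains a pseudogene, Csf1r overlaps the end of Hmgxb3, and P2ry12 (chr3:59216272-59262871) lies wholly inside Med12l, a Mediator subunit gene on the opposite strand. Cx3cr1 is annotated over 168264 bases (chr9:119901616-120069879), a span that holds 7 complete genes and most of the housekeeping gene Wdr48.

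In RiboTag libraries the 5 members with a body of their own were almost absent. Together they collected 2 to 15 counts per library. Among male D1 libraries the summed level ran from 0.0641 to 0.363 CPM with a median of 0.302 CPM, and among male D2 libraries from 0.0708 to 0.268 CPM with a median of 0.133 CPM. It was 0.204, 0.166, 0.286, 0.403 and 0.191 CPM in the female D1 libraries and 0.120, 0.164, 0.197, 0.226 and 0.135 CPM in the female D2 libraries. D1 and D2 libraries overlapped in both sexes, and so did males and females.

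In whole cell libraries the same sum was 3.99 to 21.95 CPM in D1, with a median of 10.5 CPM, and 0 to 13.7 CPM in D2, with a median of 6.76 CPM. Nuclear D1 libraries held 4.38 to 24.4 CPM, with a median of 7.00 CPM. Nuclear D2 libraries held 18.8, 18.6, 17.9, 24.1 and 12.7 CPM. The whole cell and nuclear ranges overlapped, and every RiboTag library was below every other library except whole cell D2 library 1, in which all 5 genes had 0 counts among 10850298.

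**Figure D1:**
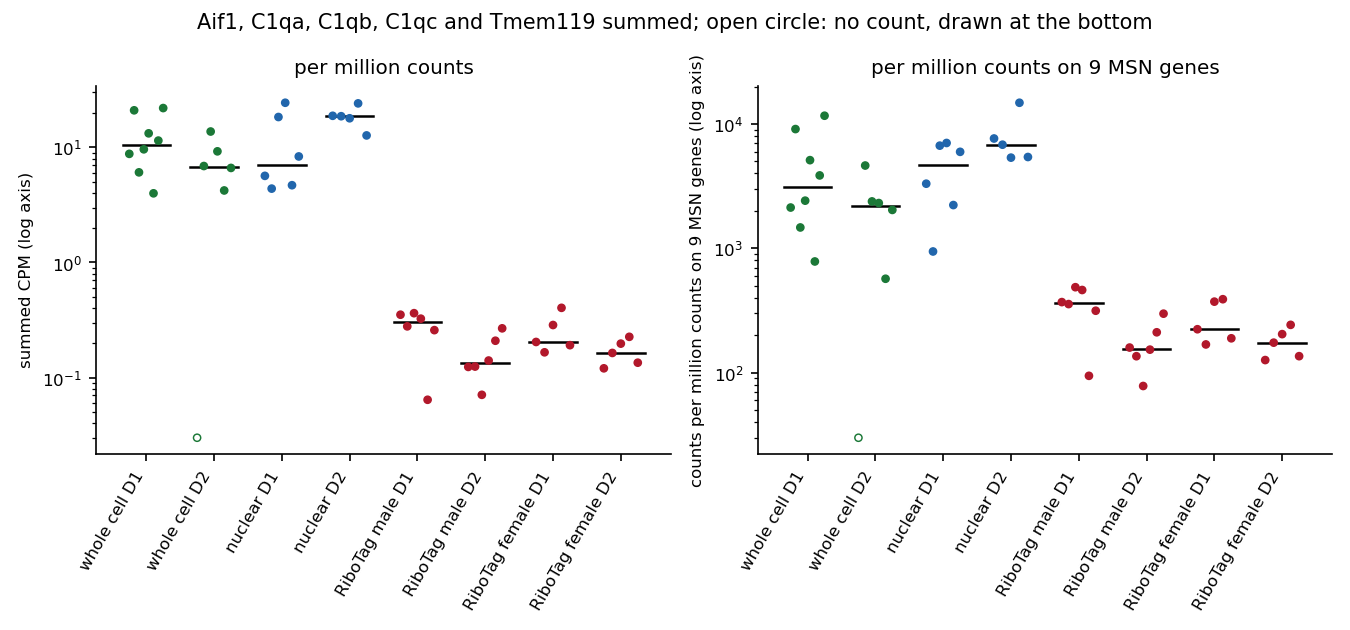
Summed level of Aif1, C1qa, C1qb, C1qc and Tmem119 in each of the 47 libraries (points) with the group median (bar), as CPM (left) and as counts per 1000000 counts on 9 MSN genes (right), both on log axes. The RiboTag libraries lie between 0.0641 and 0.403 CPM on the left and between 78.2 and 487 on the right, below all other libraries except the one with no count, drawn as an open circle.

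Because 10 genes took most RiboTag counts, the same sum was also set against the counts on 9 MSN genes (Ppp1r1b, Bcl11b, Gad1, Gad2, Rgs9, Adcy5, Pde10a, Foxp1 and Rasd2) of the same library. Per 1000000 of those counts, RiboTag libraries held 78.2 to 487 counts on the 5 microglia genes, with a median of 363 in male D1 and 156 in male D2. Whole cell D1 libraries held 784 to 11649 and nuclear D1 libraries 943 to 7032, and nuclear D2 libraries held 7641, 6813, 5361, 14810.2 and 5424. Whole cell D2 libraries held 0 to 4632, and the lowest of them after the library with no count held 569. On this scale too the RiboTag libraries did not overlap the others apart from that 1 library. In bulk fractions fewer microglia and less RNA per microglial cell cannot be told apart, and 7 of these 9 MSN genes were themselves called higher in RiboTag than in whole cells, so the ratio moves with both. Reads that fall anywhere in the genome enter the sum as well. At the density of receptor genes silent in the brain (below), they would make up 36.7% to 75.2% of it in whole cell libraries with any count. The share was 1.76% to 22.7% in nuclear D1, 33.0% to 50.2% in nuclear D2 and 1.40% to 8.47% in RiboTag. Their part in the separation was not tested.

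The 3 chains of C1q gave unequal numbers of counts. Summed over whole cell D1 libraries, C1qb took 65.8% of 565 C1q counts, C1qc 19.5% and C1qa 14.7%. In nuclear D2 libraries C1qb took 48.8% of 1782, C1qc 27.9% and C1qa 23.3%. C1qb has the longest body of the 3 genes, and per kb of body the ranges of the 3 overlapped in whole cell and nuclear groups. All 22 RiboTag libraries together gave 18 counts of C1qa, 39 of C1qb and 20 of C1qc. C1qa had 0 counts in 10 of these libraries, C1qb in 7 and C1qc in 12.

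Aif1 and Tmem119 were likewise near 0 in RiboTag. Aif1 was 1.70 to 5.82 CPM in whole cell D1, with a median of 3.08 CPM, and 0 to 5.36 CPM in whole cell D2, with a median of 1.05 CPM. In nuclei it was 0.368 to 2.53 CPM in D1, and 4.17, 3.21, 3.96, 5.18 and 4.86 CPM in the D2 libraries. Every nuclear D2 library was therefore above every nuclear D1 library in Aif1 CPM. RiboTag libraries held 0 to 7 counts of Aif1 and 0 to 3 counts of Tmem119, and Tmem119 had 0 counts in 10 of 22. Tmem119 was 0.319 to 5.56 CPM in whole cell D1, 0 to 5.90 CPM in whole cell D2, 0 to 6.75 CPM in nuclear D1, and 4.98, 5.25, 4.21, 6.50 and 2.43 CPM in nuclear D2. Its groups overlapped in each method.

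Ctss and Csf1r showed the same separation with more counts. Ctss had a median of 12.0 CPM in whole cell D1 (5.48 to 24.2), 7.97 CPM in whole cell D2 (3.32 to 18.8) and 7.78 CPM in nuclear D1 (5.99 to 21.2). The nuclear D2 libraries held 21.8, 17.6, 18.0, 25.9 and 13.8 CPM of Ctss. In RiboTag libraries Ctss was 0.0232 to 0.246 CPM, from 1 to 9 counts, and did not overlap any other group. Csf1r had a median of 11.7 CPM in whole cell D1 (7.60 to 24.7), 11.9 CPM in whole cell D2 (5.03 to 21.8) and 10.1 CPM in nuclear D1 (7.76 to 29.9). The nuclear D2 libraries were nearly level in Csf1r, at 21.1, 22.05, 22.9, 24.5 and 23.8 CPM. RiboTag libraries held 0.269 to 1.06 CPM of Csf1r, from 9 to 39 counts, again below every other library.

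**Figure D2:**
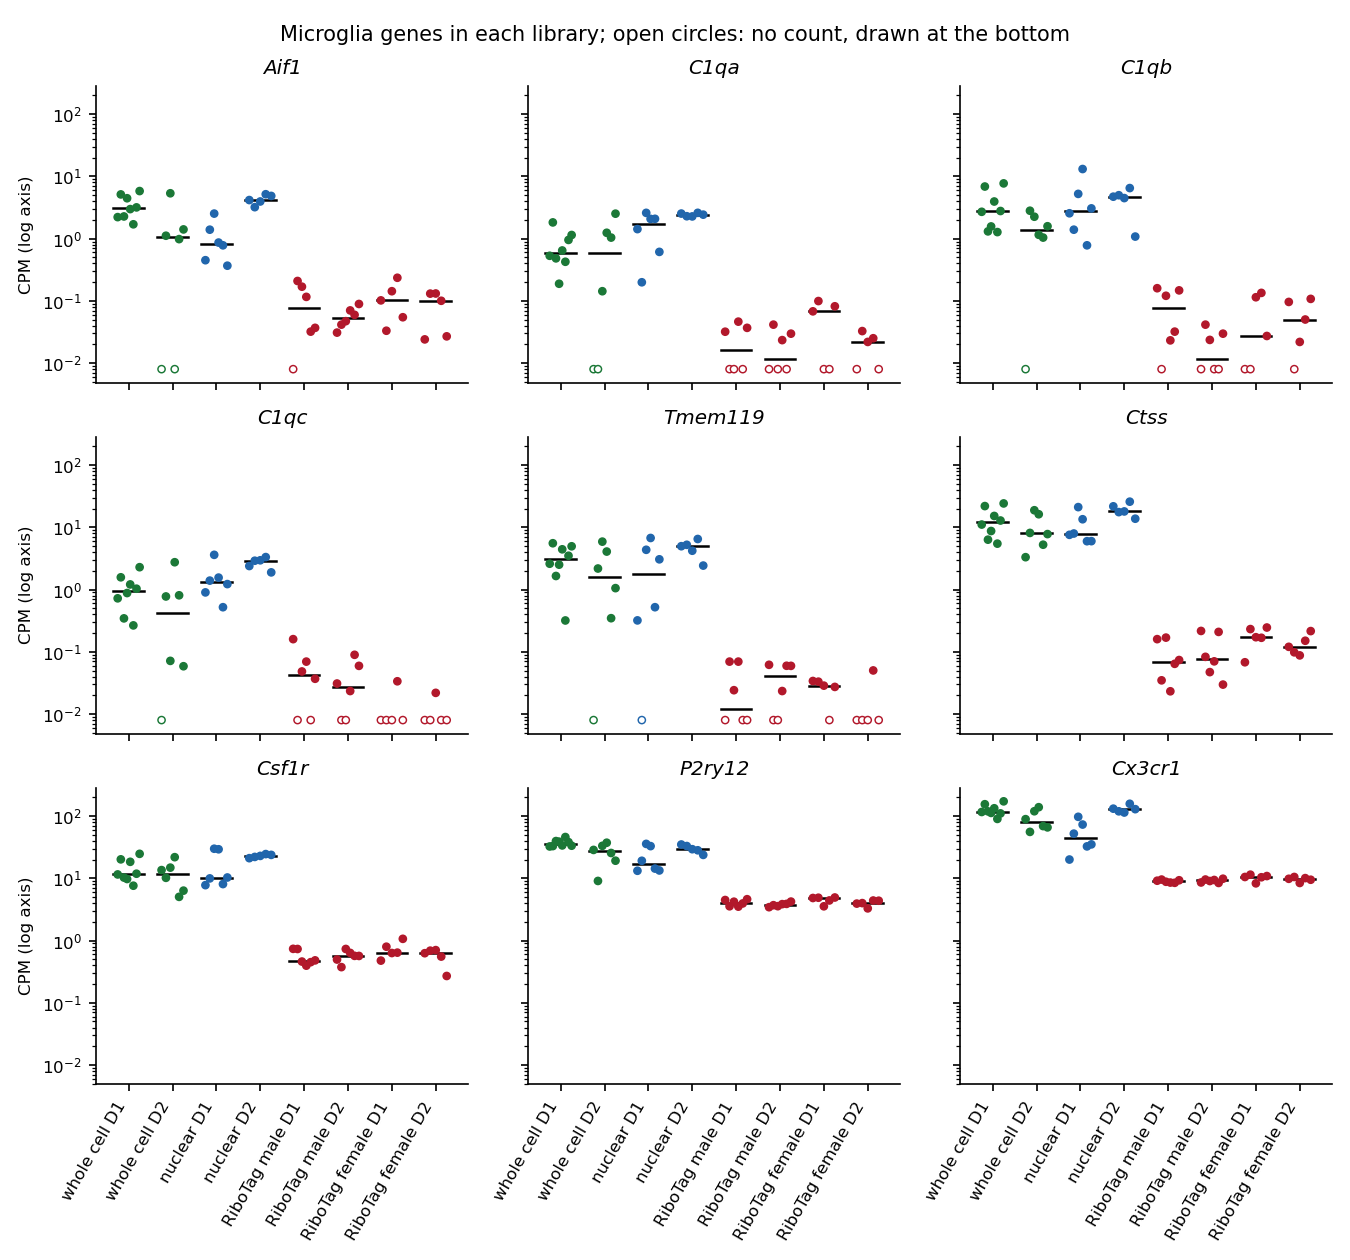
CPM (log axis) of each of the 9 microglia genes in each of the 47 libraries, by method and cell type, with the group median as a bar; open circles have no count. All 9 genes have their lowest medians in the RiboTag groups. There C1qa, C1qb, C1qc and Tmem119 have no count in 7 to 12 of 22 libraries and Aif1 in 1, and Ctss and Csf1r have counts in every library. P2ry12 and Cx3cr1 stay at 3.29 to 4.91 and 8.30 to 11.4 CPM there in every library.

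P2ry12 and Cx3cr1 stood apart in RiboTag libraries. P2ry12 was 32.5 to 46.0 CPM in whole cell D1, 9.07 to 37.3 CPM in whole cell D2 and 13.2 to 35.7 CPM in nuclear D1, and 34.9, 33.0, 29.4, 28.2 and 23.8 CPM in nuclear D2. In RiboTag it was 3.50 to 4.61 CPM in male D1 and 3.43 to 4.22 CPM in male D2, and 4.82, 4.87, 3.55, 4.404 and 4.91 CPM in female D1 and 3.92, 3.99, 3.29, 4.39 and 4.36 CPM in female D2. These RiboTag libraries held 89 to 180 counts of P2ry12, and no library was at 0. Cx3cr1 was 90.0 to 172 CPM in whole cell D1, 55.7 to 139 CPM in whole cell D2, 20.0 to 97.3 CPM in nuclear D1 and 114 to 158 CPM in nuclear D2. In RiboTag it was 8.30 to 11.4 CPM, from 230 to 408 counts. Levels were nearly the same in the 4 RiboTag groups, whose medians were 8.97 CPM (male D1), 9.22 CPM (male D2), 10.5 CPM (female D1) and 9.82 CPM (female D2).

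Ordered by CPM per kb of gene body, P2ry12 was first and Cx3cr1 second in all 4 RiboTag groups, with no overlap between them or with the gene that followed. In male D1 the medians were 0.0874 CPM per kb for P2ry12, 0.0533 for Cx3cr1 and 0.0151 for Aif1, which came next. From there down every gene overlapped its neighbour. In whole cell D1 the order ran from P2ry12 at 0.772 CPM per kb to C1qa at 0.204, and in nuclear D2 from C1qc at 0.892 to Ctss at 0.609. Each gene overlapped its neighbour in all whole cell and nuclear groups, although some genes further apart did not overlap: in whole cell D1 P2ry12 (0.697 to 0.988 CPM per kb) lay wholly above C1qa (0.0653 to 0.632), and in nuclear D2 C1qa (0.789 to 0.901) lay wholly above Csf1r (0.667 to 0.777).

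The genes that share the bodies of P2ry12 and Cx3cr1 were counted as well. P2ry12 takes 14.9% of the span of Med12l. It held 9.60% to 19.3% of the counts of Med12l in whole cell and nuclear libraries, and 24.7% to 32.1% in RiboTag libraries. Per base, the P2ry12 stretch was 0.607 to 1.37 times as dense as the rest of Med12l in whole cell and nuclear libraries and 1.87 to 2.70 times as dense in RiboTag libraries, with no overlap. Without strand, reads of P2ry12 and of the Med12l strand over it cannot be told apart.

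For Cx3cr1, the 7 complete genes inside its body held 15.2% to 49.7% of its counts in whole cell and nuclear libraries and 24.9% to 39.6% in RiboTag libraries. Adding Wdr48, of which 24972 of 31710 bases lie in the body, brought the RiboTag share to 109% to 122%, against 55.2% to 128% in whole cell and nuclear libraries. With Wdr48 counts scaled by the part of its body inside the span, the shares were 92.3% to 104% in RiboTag and 51.2% to 110% in whole cell and nuclear libraries. How many of the RiboTag counts were reads of Cx3cr1 itself cannot be told apart. Wdr48 had medians of 7.11 CPM (male D1) and 7.62 CPM (male D2) in RiboTag, and Gorasp1, a Golgi protein gene in the same span, had 2.66 and 2.65 CPM.

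**Figure D3:**
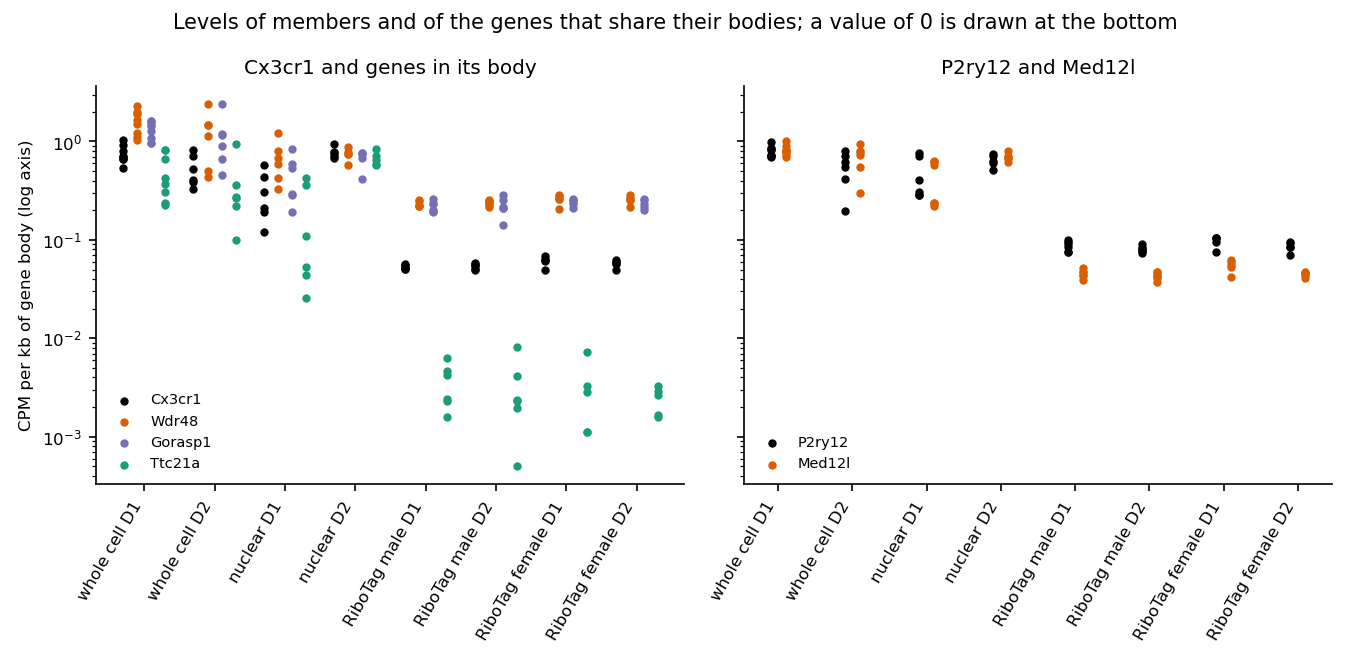
CPM per kb of gene body (log axis) for members and for the genes that share their bodies, in each group, with a value of 0 drawn at the bottom. In RiboTag groups Wdr48 and Gorasp1 lie above Cx3cr1 (medians of 0.224 and 0.216 against 0.0533 in male D1), and Med12l lies below P2ry12 (0.0453 against 0.0874).

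To see how far the member counts stood above reads that fall anywhere in the genome, their counts per kb were set against those of 1330 olfactory and vomeronasal receptor genes, which are silent in the brain and whose bodies meet no other kind of gene. In whole cell libraries the 5 members with a body of their own were together 0 to 2.72 times as dense as these receptor genes. In nuclear D2 libraries they were 1.99 to 3.03 times as dense. At the receptor gene density, 36.7% to 75.2% of the summed counts would be present in the whole cell libraries with any count, and 33.0% to 50.2% in nuclear D2. Nuclear D1 libraries were further above it, at 4.41 to 57.0 times, and RiboTag libraries at 11.8 to 71.2 times, where the receptor genes gave an expected 0.0994 to 0.386 counts against the 2 to 15 measured.

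Single members in whole cells lay close to this level. C1qa had a median of 1.06 times the receptor gene density over the 14 whole cell libraries, C1qc 1.28, Tmem119 1.93, Ctss 1.94, C1qb 1.96, Csf1r 2.08, Aif1 2.61, Cx3cr1 2.96 and P2ry12 2.97. The receptor genes themselves ranged from 0.0644 to 0.411 CPM per kb in whole cells, 0.00413 to 0.173 in nuclear D1 and 0.256 to 0.411 in nuclear D2, and from 0.000171 to 0.000439 in RiboTag. This density therefore moved with method and, in nuclei, with cell type, in the same direction as the summed CPM of the members between RiboTag and the other methods. Its part in the differences above and below was not tested.

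**Figure D4:**
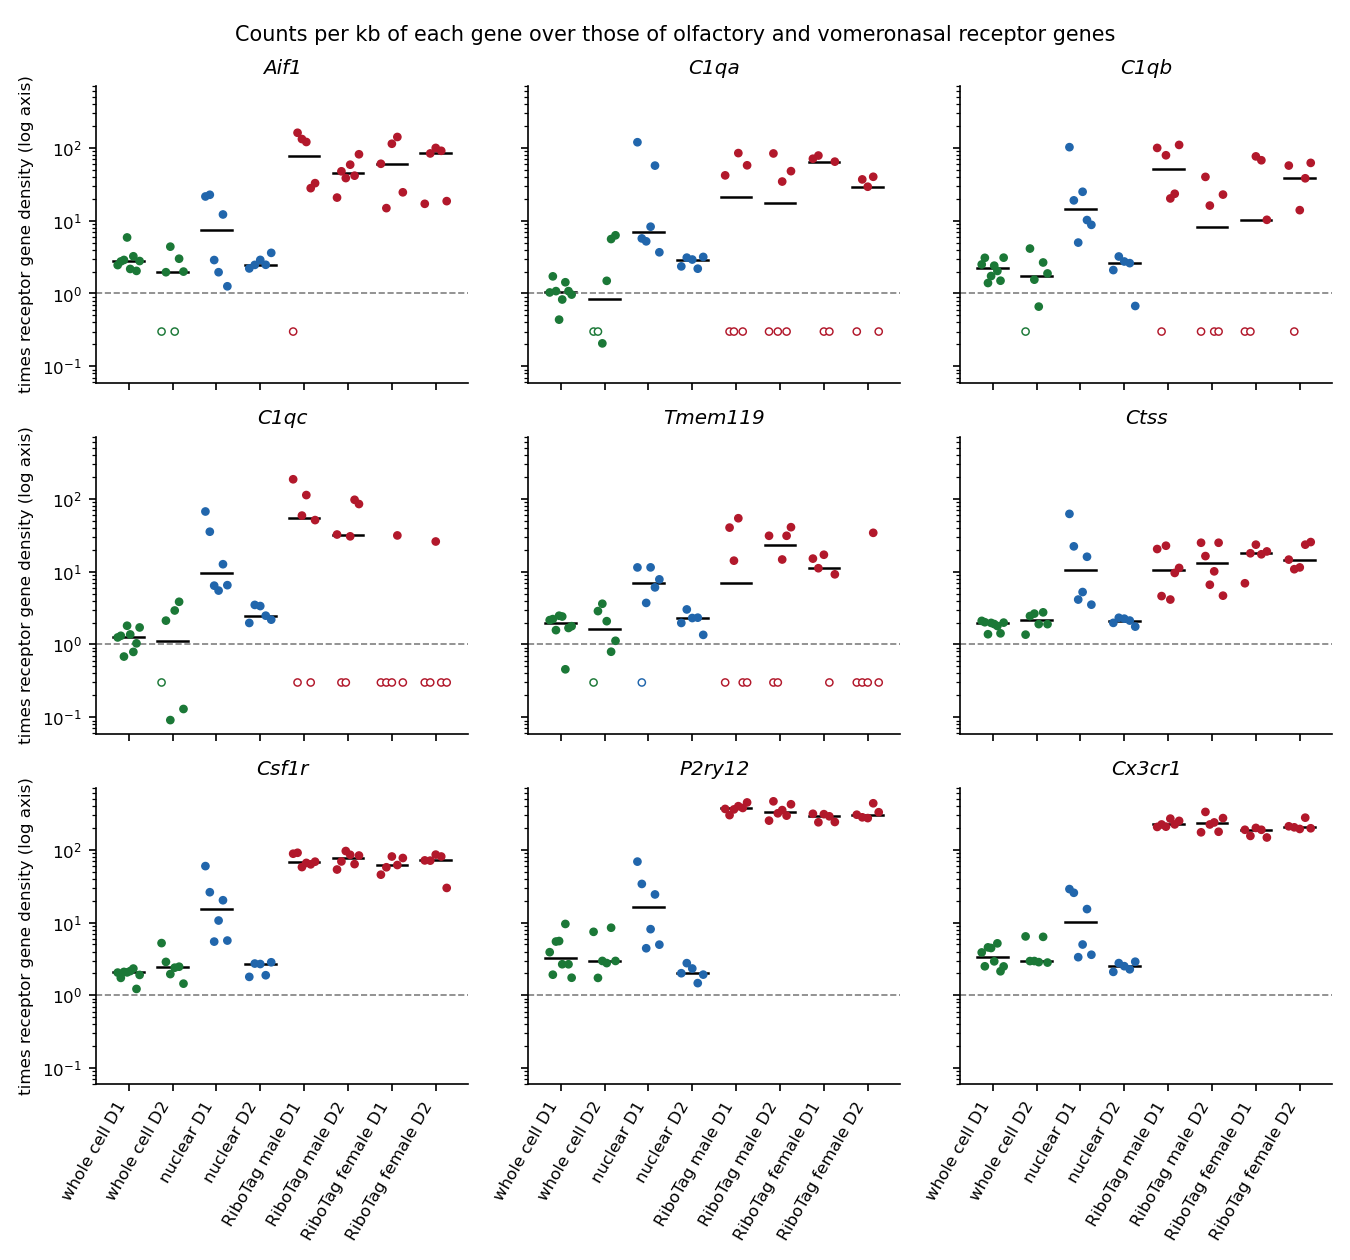
Counts per kb of each microglia gene divided by those of the receptor genes in the same library (log axis); the dashed line is 1, points are libraries, bars are medians and open circles have no count. Whole cell and nuclear D2 libraries sit near the line, with whole cell medians from 1.06 for C1qa to 2.97 for P2ry12, and P2ry12 in RiboTag sits at 238 to 463.

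Across the 14 whole cell libraries the mean level of the members also moved with that of genes from no microglial list. On log2 CPM, the genes most like the mean of the members were Gm14321 (Pearson's r = 0.944), Elf3 (0.942), Gm36864 (0.941), Galnt6 (0.940) and 4933427I22Rik (0.937), against a median r of 0.132 over 16351 genes. The correlation with the receptor gene density was 0.862, with the astrocyte gene Slc1a2 0.743, with the myelin gene Mbp 0.660, with Drd1 0.335 and with the MSN gene Ppp1r1b -0.529. The 14 libraries differed in depth (10476223 to 27965357 counts) and in the share of their 10 most abundant genes (2.70% to 54.5%). The part of these differences in the correlations was not tested, and the correlations carry no test.

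The methods were compared in 1 fit of the 37 male libraries with edgeR's quasi-likelihood test, TMM scaling and Benjamini-Hochberg adjustment over 29901 genes, averaged over D1 and D2. A gene was called at an adjusted p of at most 0.05 and an absolute log2 fold change above 0.38. Between RiboTag and whole cell, 6 of 9 members were called lower in RiboTag, where 62.7% of all genes tested were lower, and 1 was called higher, where 23.7% were. The median log2 difference was -1.43 for the members and -1.91 for all genes tested. The members' shares were thus close to those of all genes on this scale.

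Ctss was lower in RiboTag than in whole cells by a log2 fold change of -3.33 ± 0.30 (SE; adjusted p = 1.37e-12). Tmem119 differed by -2.81 ± 0.64, C1qb by -2.60 ± 0.58, C1qa by -2.04 ± 0.72, Aif1 by -1.43 ± 0.50 and Csf1r by -1.03 ± 0.17, with adjusted p-values from 8.71e-07 to 0.00872. C1qc, at -0.80 ± 0.58, did not pass (adjusted p = 0.191). P2ry12 was higher in RiboTag, by 0.51 ± 0.12 (adjusted p = 0.000265), but DESeq2 put it at 0.35 ± 0.09 (adjusted p = 0.000121), under the fold needed for a call. Cx3cr1 did not differ detectably (-0.05 ± 0.07, adjusted p = 0.507). Of the genes that share their bodies, Wdr48 was higher by 0.89 and Gorasp1 by 0.98, and Med12l was lower by a log2 fold change of -0.61. With total counts as the only scale all 9 members were lower, P2ry12 by -2.98 on the log2 scale, and 98.1% of all genes were lower and 0.589% higher. Within D1 alone 5 members were lower (59.3% of all genes) and P2ry12 was higher (21.3%), and within D2 alone 5 were lower (59.3%) and P2ry12 was higher (21.9%).

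**Figure D5:**
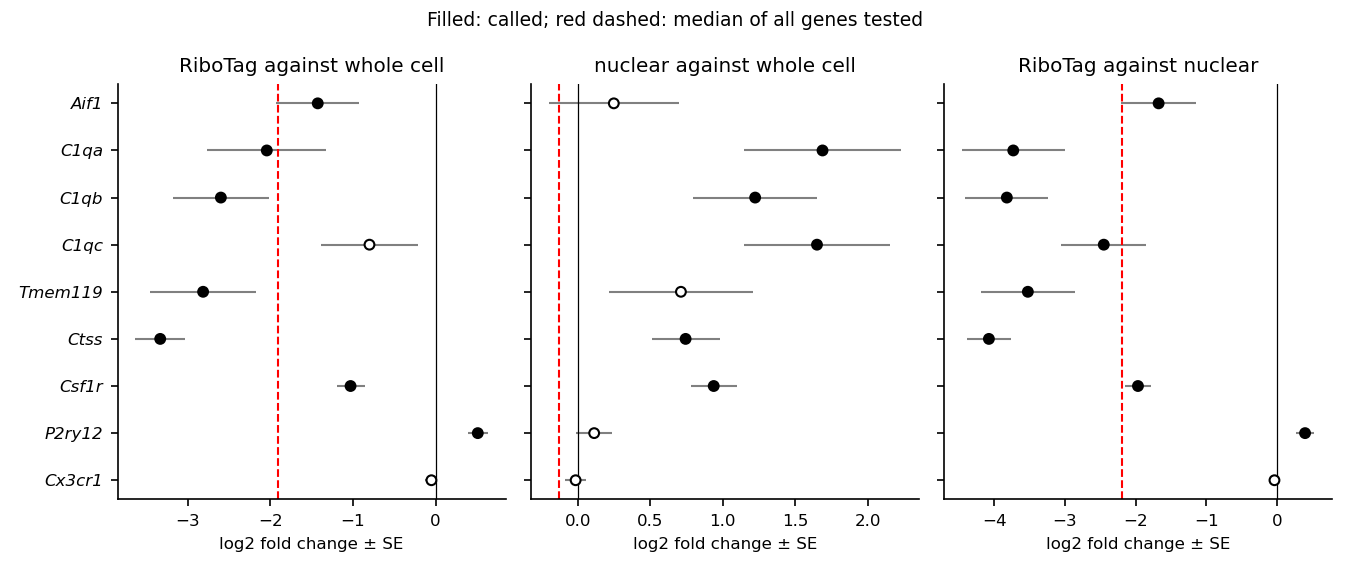
Log2 fold change ± SE of the 9 microglia genes for RiboTag against whole cell, nuclear against whole cell and RiboTag against nuclear (edgeR, averaged over D1 and D2); filled points were called and the red dashed line is the median of all genes tested. Most members lie left of 0 in both RiboTag contrasts around medians of all genes of -1.91 and -2.19, and P2ry12 alone was called to the right, which turned to -2.98 and -2.70 with total counts as the only scale.

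Between nuclei and whole cells, 5 of 9 members were called higher in nuclei, against 6.75% of all genes tested, and 0 lower, against 12.4%. All 3 C1q chains were among them, C1qa at a log2 fold change of 1.69 ± 0.54, C1qc at 1.65 ± 0.50 and C1qb at 1.22 ± 0.43 (adjusted p from 0.0147 to 0.0362). Csf1r was higher by 0.94 ± 0.16 (adjusted p = 2.40e-05) and Ctss by 0.74 ± 0.23 (adjusted p = 0.0192). Tmem119 (0.71 ± 0.50), Aif1 (0.25 ± 0.45), P2ry12 (0.11 ± 0.13) and Cx3cr1 (-0.02 ± 0.07) did not pass. The median of all genes was -0.13. With total counts as the only scale 0 of 9 were called higher and 2.27% of all genes were (21.8% were lower), with C1qa at 1.26 and Csf1r at 0.55.

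With edgeR the same members were called within D1. In D1, C1qa (2.41 ± 0.73), C1qc (1.84 ± 0.67), C1qb (1.55 ± 0.57), Csf1r (1.33 ± 0.21) and Ctss (0.95 ± 0.31) were called higher in nuclei, against 10.7% of all genes, and 0 were lower, against 8.44%; without nuclear D1 library 1 the D1 count was 1 of 9. DESeq2 called 2 members higher within D1. Total counts as the only scale gave 0 members higher and 3 lower, beside 395 of 29901 genes higher and 19339 lower. For the DESeq2 counts in this paragraph the share of all genes is not given here. Within D2 edgeR called 0 of 9 higher, against 3.68% of all genes, and 0 lower, against 16.5%, with 1 member at an unadjusted p below 0.05 and 2 called by DESeq2. The difference between the D1 and D2 contrasts did not pass for any member in edgeR (adjusted p from 0.0672 for Csf1r to 0.964 for Tmem119; 2 members at an unadjusted p below 0.05), while 21.9% of all genes passed; DESeq2 passed 1 member. A cell type difference between nuclei and whole cells was therefore not shown for these genes.

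RiboTag against nuclei gave the widest separation. In this contrast 7 members were lower in RiboTag, among 63.5% of all genes tested, with Ctss at -4.08 ± 0.31, C1qb at -3.82 ± 0.59, C1qa at -3.73 ± 0.73, Tmem119 at -3.52 ± 0.66, C1qc at -2.45 ± 0.60, Csf1r at -1.97 ± 0.18 and Aif1 at -1.67 ± 0.53. The median of all genes was -2.19. P2ry12 was called higher (0.40 ± 0.13), as were 25.7% of all genes, but not in DESeq2 (0.10 ± 0.09, adjusted p = 0.284) nor without nuclear D1 library 2 or 6 or nuclear D2 library 5 or 7, and Cx3cr1 stood at -0.04 ± 0.08. Within D1 alone 6 members were lower (59.4% of all genes) and 0 higher (20.2%), and within D2 alone 7 were lower (60.0%) and 1 higher (26.3%). With total counts as the only scale all 9 were lower, beside 93.5% of all genes, and 0 higher, beside 1.89%. The cell type difference of this contrast passed for 0 of 9 members in edgeR and in DESeq2 (2 and 1 at an unadjusted p below 0.05), against 14.6% of all genes in edgeR, and for RiboTag against whole cell for 0 of 9 in both (0 at an unadjusted p below 0.05), against 0.120%.

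D2 was compared with D1 within each method after the abundance filter of the study, which removed most members. Only C1qa was tested in whole cells, with a log2 difference of D2 over D1 of 0.47 ± 1.04 (adjusted p = 0.930), and 1.06% of 16352 genes were called. In nuclei C1qa (0.34 ± 0.48, adjusted p = 0.646) and C1qb (-0.14 ± 0.51, adjusted p = 0.873) were tested and not called, where 12.2% of genes were. In RiboTag no member passed the filter, at 2.56% of genes called in males, 1.90% in females and 0.0837% between the sexes. DESeq2 also called 0 members in whole cells and nuclei, and 0 were at an unadjusted p below 0.05.

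Without the filter on length-scaled abundance all 9 members could be tested in whole cells and nuclei. In whole cells 0 of 9 were called, and 0.102% of all genes; differences ran from -0.75 ± 0.77 for Aif1 to 0.67 ± 0.98 for C1qa, with Csf1r at 0.14 ± 0.28 and Cx3cr1 at -0.10 ± 0.16, and 0 members were at an unadjusted p below 0.05. DESeq2 called 0 as well. With standard errors of this size a moderate difference in the C1q genes was not detectable at this depth.

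In nuclei P2ry12 (-0.85 ± 0.21, adjusted p = 0.0111) and Csf1r (-0.70 ± 0.21, adjusted p = 0.0294) were called lower in D2 than in D1, among 19.4% of all genes, and 0 were called higher, among 4.30%. Their CPM ran the other way. Csf1r was 21.1 to 24.5 CPM in D2 against 7.76 to 29.9 CPM in D1, and P2ry12 was 23.8 to 34.9 against 13.2 to 35.7 CPM. With total counts as the only scale P2ry12 stood at 0.48 and Csf1r at 0.53, all 9 members were positive, and Cx3cr1 (1.34) and Aif1 (1.98) were called higher, beside a median of all genes of 1.45. Med12l, which holds P2ry12, was called lower too (-0.56 ± 0.17). Csf1r was no longer called in 8 of 11 fits that left out 1 nuclear library (libraries 1, 4, 5 and 6 of D1 and 1, 2, 3 and 5 of D2), at values from -0.72 to -0.56.

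In RiboTag only P2ry12 and Cx3cr1 passed the count filter alone. The D2 over D1 difference was -0.07 ± 0.08 for P2ry12 and 0.05 ± 0.06 for Cx3cr1 in males, and -0.03 ± 0.09 and 0.05 ± 0.07 in females. None was called, against 3.12% of genes in males and 1.83% in females. Females against males differed by -0.01 ± 0.06 for P2ry12 and 0.00 ± 0.04 for Cx3cr1, and 0.0539% of genes were called.

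Most other genes of microglia were also lower in RiboTag. Of 23 further microglia genes, all tested, 21 were lower than in whole cells and 0 higher, with a median of -3.04, beside 62.7% of all genes lower, 23.7% higher and a median of -1.91. In nuclei 2 were higher and 0 lower than in whole cells, with a median of 0.18, beside 6.75% and 12.4% of all genes. Ptprc, the leukocyte phosphatase CD45, was lower in RiboTag by a log2 fold change of -5.71 ± 0.50, Ly86 by -3.83 ± 0.26 and Inpp5d by -2.47 ± 0.23. Together the 23 genes summed to medians of 269 and 166 CPM in whole cell D1 and D2, 83.2 and 450 CPM in nuclear D1 and D2, and 2.81 to 4.61 CPM in RiboTag.

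Among 18 genes of ligands, complement partners and substrates of the members, 16 were lower and 2 higher in RiboTag than in whole cells. In nuclei 1 was lower and 1 higher. Of all genes tested, 62.7% were lower and 23.7% higher in RiboTag, and 12.4% were lower and 6.75% higher in nuclei. Cx3cl1, the neuronal ligand of Cx3cr1, was higher in RiboTag by 2.64 ± 0.25 and lower in nuclei by a log2 fold change of -1.07 ± 0.26. It was 54.4 to 81.9 CPM in RiboTag, 48.8 to 183 CPM in whole cells and 19.4 to 80.7 CPM in nuclei. Il34, a ligand of Csf1r, was lower in RiboTag (-1.44 ± 0.11), with 1.02 to 1.88 CPM there. Of 10 cytokine and chemokine genes tested of 12, 9 were lower and 1 higher in RiboTag, beside the same 62.7% and 23.7% of all genes. Il1b had 0 counts in every RiboTag library and 0.810 to 6.20 CPM in whole cells. In nuclei 0 of the 10 were called by edgeR, beside 12.4% of all genes lower and 6.75% higher.

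The counts for genes of other cell types in RiboTag against whole cell stand beside 62.7% of all genes lower and 23.7% higher, and no difference between cell types was tested. Here 5 of 6 border macrophage genes, 4 of 5 blood cell genes and 7 of 7 endothelial genes were lower, and 1 border macrophage and 1 blood cell gene were higher. Of 9 oligodendrocyte genes 3 were higher and 0 lower, and of 9 astrocyte genes 3 were higher and 5 lower. Of 9 MSN genes 7 were higher. In nuclei against whole cells, where 6.75% of all genes were higher and 12.4% lower, 7 of 9 oligodendrocyte genes and 6 of 9 astrocyte genes were higher, with medians of 2.11 and 1.96, beside 0 of 6 border macrophage, 1 of 5 blood cell and 0 of 7 endothelial genes, and 4 of 9 MSN genes were lower. Slc1a2, the astrocyte glutamate transporter, was higher in nuclei by 3.25 ± 0.18 and Mobp, a myelin gene, by 3.39 ± 0.24. The rise of the C1q genes, Csf1r and Ctss in nuclei thus stood beside higher levels of most oligodendrocyte and astrocyte genes, whose part in the result was not tested.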

How the data were processed

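The table holds gene counts that the authors deposited: paired-end reads aligned to GRCm38 with HISAT2 and assigned by featureCounts to whole gene bodies of Ensembl release 90, without strand, with reads over several genes counted for each and multi-mapping reads left out. Repeat columns of 1 library were added together, which left 47 libraries from 49 columns. The labels list 8 whole cell D2 samples, while 7 columns carry that group's name, 1 of them read here from its name as a second lane. Which samples these are was not given in the sources used here, so 6 libraries is a reading of the column names. So is the addition of 1 whole cell D1 column, named as a repeat, to its library. The study counts more whole cell D1 and more whole cell D2 samples than these libraries, each from its own mouse. CPM are counts per 1000000 counts of the library. Gene spans came from the GRCm38 annotation, which matched 52489 of 52636 genes.

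Genes above 1 CPM in at least 2 libraries were fitted in edgeR with TMM scaling. The D2 against D1 comparisons also used the study's filters. These were at least 1 FPKM (scaled fragments per kb of gene body) in at least 1 library for whole cell and nuclear data, and 0.1 FPKM in at least 2 for RiboTag. A call also needed a mean count above the 25th percentile and, for nuclei, a standard error below the 75th percentile. Alternatives were DESeq2, its size factors, total counts alone, no filter and leaving out libraries. Those on the unfiltered whole cell and nuclear D2 against D1 comparisons were chosen after seeing the data. So was leaving out a nuclear D1 library or whole cell D2 library 1 in the methods fit, whereas leaving out a nuclear D2 library there was planned. The members and the gene lists (other microglia genes, ligands, complement partners and substrates of the members, cytokine and chemokine genes, border macrophage, blood cell, endothelial, astrocyte, oligodendrocyte, MSN, and D1 and D2 cell type genes) were chosen with earlier results of these data known. Of the other microglia genes and the MSN genes, 1 each is not reported here. All members were described, and of other lists the most abundant genes were named first. Of the 10 D1 and D2 cell type genes, 8 were higher in RiboTag than in whole cells, beside 23.7% of all genes. In nuclei 7 were lower than in whole cells, beside 12.4% of all genes. On simulated counts with log2 changes of 1.5, edgeR recovered 58.5% of changed genes for whole cell D2 against D1 (16352 genes), 74.0% for nuclear (9228 genes) and 100% for RiboTag (6784 and 7057 genes). For RiboTag against whole cell within D1 it recovered only 40% (27458 genes), so a member not called in the methods comparison may still differ.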

Additional observations from a re-analysis of the deposited data

Results flagged for a closer look

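In 9 of 80 group values checked, 1 library stood apart from the rest of its group. The nominal rate of the rule, about 1 in 20, does not hold for groups with counts near 0. The summed level also reuses the same genes, so the number flagged was not set against that rate. Whole cell D2 library 3 had 5.36 CPM of Aif1, where the next library had 1.41. Nuclear D1 library 4 had 13.2 CPM of C1qb (next 5.24). C1qc was 2.75 CPM in whole cell D2 library 4 (next 0.81) and 3.62 CPM in nuclear D1 library 3 (next 1.56). In RiboTag these values rest on 0 to 2 counts: C1qc was 0.0336 CPM in female D1 library 5 and 0.0219 CPM in female D2 library 3, with all others at 0, and Tmem119 was 0 in female D1 library 5, where the next library had 0.0273 CPM, and 0.0502 CPM in female D2 library 5, with all others at 0. The summed level of the 5 members with a body of their own was 0.0641 CPM in RiboTag male D1 library 5, where the next library had 0.258 CPM.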

How the results depend on the processing

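For the methods, RiboTag against whole cell and RiboTag against nuclei called 6 and 7 members lower in each of the 12 fits that left out 1 nuclear library or whole cell D2 library 1; the other libraries were not left out there. P2ry12 was the only member called higher in these contrasts with TMM: 0 members were called higher for RiboTag against whole cell, within D1 alone, for RiboTag against nuclei and within D2 alone with DESeq2, with its size factors and with total counts alone (the cause was not tested), and within D2 against whole cell with total counts alone. The DESeq2 estimates for P2ry12 were 0.35 and 0.10 on the log2 scale, and with total counts alone they turned to -2.98 and -2.70, and to -0.27 for nuclear against whole cell. Within D1 and within D2 the 5 members lower in RiboTag than in whole cell became 9 with total counts alone, and 3 in D1 with no filter on low values. For nuclear against whole cell, the 5 members called higher became 0 with total counts alone. Within D1 they became 2 with DESeq2 and with its size factors, 3 with no filter and 0 with total counts alone, which called 3 lower, beside 19339 of 29901 genes. Within D2 the 0 became 2 with DESeq2 and with its size factors. The difference between the D1 and D2 contrasts, 0 members in edgeR, became 1 higher with DESeq2 and with its size factors and 3 higher with total counts alone for nuclear against whole cell, and 1 lower with total counts alone for RiboTag against nuclei. In these 2 directions total counts alone called 17413 and 3106 of 29901 genes. Cx3cr1 turned to 0.0743 with DESeq2, 0.0743 with its size factors and 0.0402 with no filter for nuclear against whole cell, to 0.23 and 0.19 with no filter in the RiboTag contrasts, and Aif1 to -0.0847 with total counts alone for nuclear against whole cell.

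Counts of all genes called moved as follows. With total counts alone they were 19734 for nuclear against whole cell in D1 (edgeR with TMM 5718), 3072 in D2 (6028) and 17644 for the difference between these (6553). With no filter they were 9857 for nuclear against whole cell (5741), 13623 in D2 and 12311 for the difference. DESeq2 called 118 for the difference of RiboTag against whole cell (36), 707 for whole cell D2 against D1 (174), 172 for it without the FPKM filter (34) and 0 between the sexes (6). Keeping the repeat column as a library of its own gave 329 for whole cell D2 against D1. Without the FPKM filter the counts were 34 in whole cells, 7290 in nuclei (1129) and 333 in RiboTag males (174), and total counts alone gave 4850 in nuclei without that filter.

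For nuclear D2 against D1, the 0 members called lower became 2 without the FPKM filter, and C1qa turned from 0.34 to -0.82. In that unfiltered comparison, the 2 called lower became 1 with the size factors of DESeq2 and 0 with total counts alone, and the 0 called higher became 2, 1 and 2 with DESeq2, its size factors and total counts alone. With total counts alone 7 members changed sign: C1qa to 0.69, C1qb to 0.0200, C1qc to 0.79, Csf1r to 0.53, Ctss to 0.91, P2ry12 to 0.48 and Tmem119 to 0.91, which was 0.12 with DESeq2 and 0.12 with its size factors. For whole cell D2 against D1 without the filter, total counts alone turned Csf1r to -0.26 and Ctss to -0.41.

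Leaving out 1 library at a time, members called higher in nuclei than in whole cells ranged from 4 to 5 (4 without nuclear D1 library 4 or nuclear D2 library 1, 2, 3 or 5, when C1qb was lost), from 1 to 5 in D1 (1 without nuclear D1 library 1), and those higher in RiboTag than in nuclei from 0 to 1. Members lower in RiboTag than in whole cell ranged from 4 to 5 in D1 and from 5 to 6 in D2. Members whose D1 and D2 contrasts differed ranged from 0 to 1 higher for RiboTag against nuclei (1 without nuclear D1 library 2, 3 or 6 or nuclear D2 library 2) and from 0 to 1 lower for nuclear against whole cell (1 without nuclear D1 library 2). Without the FPKM filter, members lower in nuclear D2 than D1 ranged from 1 to 2. All genes called ranged from 59 to 624 for whole cell D2 against D1 (59 without D1 library 1, 624 without D1 library 8), from 21 to 37 without the FPKM filter, from 370 to 1488 for nuclear D2 against D1 (370 without D2 library 5), from 3863 to 11227 without the FPKM filter (3863 without D2 library 5, 11227 without D1 library 3), and from 1 to 11 between the sexes. For nuclear against whole cell they ranged from 3928 to 9251 in D1 and from 4179 to 11451 for the difference between D1 and D2, and for that difference in RiboTag against nuclei from 2589 to 5797. Values that changed sign were all uncalled: Cx3cr1 for nuclear against whole cell (-0.0336 to 0.000608), C1qb for nuclear D2 against D1 (-0.37 to 0.28), Tmem119 in nuclei without the FPKM filter (-0.42 to 0.20), and in whole cells without it C1qa (-0.17 to 1.03), C1qc (-0.67 to 0.27), Ctss (-0.14 to 0.25) and Tmem119 (-0.49 to 0.17).

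With the replicate block, RiboTag male D2 against D1 called 174 genes, and no member was tested there. Same-numbered libraries there correlated at -0.025 to 0.153, so they shared only a number, and 1 of 6 correlated best with its own. Each library came from 1 mouse, so no D1 library shared a mouse with a D2 library. Whole cell, nuclear and female libraries were not blocked by number. The column numbers of whole cell D2, nuclear D2 and female libraries do not follow those of the titles. In RiboTag a member with 0 counts among 24076888 to 45641342 could still be present at 3 counts, which is 0.0657 to 0.125 CPM, and the scale limits the comparison of methods, since TMM assumes that most genes do not differ. Whether same-group libraries were processed together was not given in the sources used here.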
